A study of Mus musculus with 30 samples.

Results

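The acrosome is a secretory vesicle over the front of the sperm nucleus. It is assembled in round and elongating spermatids, and it opens before the sperm passes the coat of the egg. The proteins exposed afterwards bind the egg membrane and fuse with it. Mature sperm transcribe almost nothing, so the RNA of these genes in sperm is regarded as left over from spermatids. The 10 genes described here were named by role: Acr, Acrbp, Acrv1 and Spam1 encode enzymes and matrix proteins of the acrosome, Zpbp, Zpbp2 and Spaca1 encode proteins needed for its shape, and Izumo1, Spaca6 and Tmem95 encode membrane proteins needed for fusion. They were matched by gene name in the 2 tables of sperm RNA. At 24 h, 8 of the 10 genes were listed among 16242 features, and at 46 days 3 of them among 3082 features.

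Adult male C57Bl/6J mice, 3 months old, were injected with the dual PPARα/γ agonist tesaglitazar at 10 µg/kg (TESA) or with vehicle (CTRL), 2 times per week for 4 weeks. Sperm that swam out of the cauda epididymis was treated with a lysis buffer for somatic cells. It was collected 24 h after the last injection (4 TESA and 4 CTRL libraries of polyadenylated RNA) or 46 days after it (7 TESA and 7 CTRL libraries of total RNA depleted of rRNA). The comparison asks whether the drug changes sperm RNA shortly after exposure or after a delay that covers spermatogenesis. The labels do not state that each library came from its own male, and p-values then measure the spread between libraries only. The paper states that its n counts animals once outliers were removed. Its n for sperm RNA holds fewer TESA animals than the 7 libraries used here at 46 days.

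Library totals were 15337517 to 27709918 estimated counts at 24 h and 4538101 to 13513801 at 46 days. The 8 genes listed took 559 counts (CTRL 4) to 2172 counts (TESA 7) of a library at 24 h. At 46 days the 3 genes took 19.7 counts in TESA 2, 26.9 in TESA 12 and up to 2162 in CTRL 14, so the same genes rest on very different depths. Values below are CPM (counts scaled to a common library size) scaled by TMM, whose factors ran from 0.771 to 1.57 at 24 h and from 0.0981 to 8.15 at 46 days. The tables were normalized separately, and no transcript lengths were at hand, so levels are compared within a gene and a table only. Where a gene is said to have the most counts of a list, this orders counts, to which transcript length contributes, and not transcript levels. In bulk RNA, fewer cells of a type and less RNA per cell cannot be told apart.

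No difference between TESA and CTRL in any of these genes passed the test at either time, and the intervals below show how large a difference the data allow. By edgeR's quasi-likelihood test, with p adjusted over all genes tested (Benjamini-Hochberg), 0 of the 7 genes tested at 24 h and 0 of the 3 at 46 days passed an adjusted p of 0.05, beside 0% of 13032 and 0% of 2262 genes. An unadjusted p under 0.05 was also found for 0 of 7 and 0 of 3, against 2.4% of all genes tested at 24 h and 5.75% at 46 days. The libraries of the 2 conditions overlapped for each gene, while they did not overlap for 3.05% of all genes at 24 h and 0.0442% at 46 days. With DESeq2, edgeR's exact test and limma voom with quality weights, too, 0 of these genes passed the adjusted threshold; over all genes, these 3 tools called 0 at 24 h, and at 46 days the exact test called 12 and the others 0. Without TMM, on library totals, the median log2 fold change of all genes moves from -0.01 to 0.21 at 24 h and from 0.03 to -1.03 at 46 days, and on that scale the values below are to be read against those medians. The median log2 fold change was -0.17 over the 7 genes and -0.01 over all 13032, and -0.07 over the 3 genes and 0.03 over all 2262. That of the 7 genes was -0.36 without CTRL 4, -0.08 without TESA 3 and -0.03 on library totals.

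**Figure D1:**
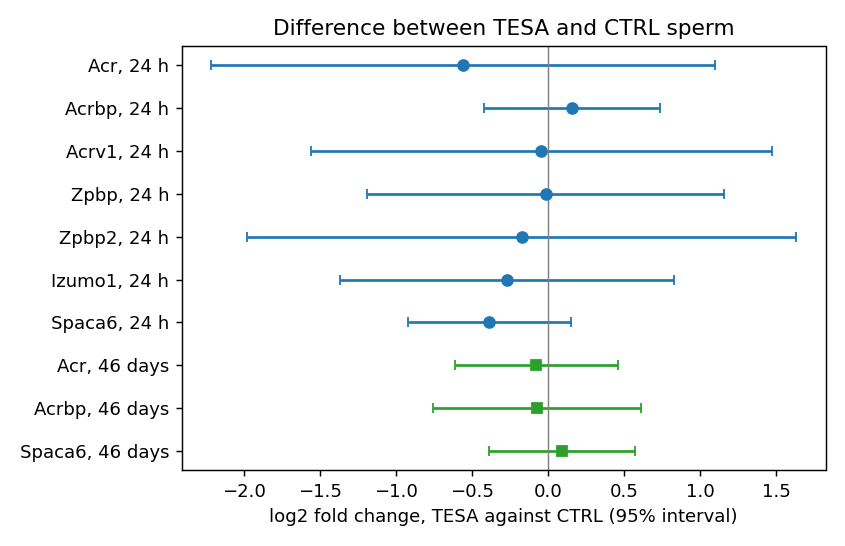
Log2 fold change of TESA against CTRL for each gene tested, with its 95% interval from edgeR's quasi-likelihood fit; circles stand for 24 h (4 libraries a group) and squares for 46 days (7 libraries a group). All 10 intervals include 0, and the intervals of Acr, Acrv1 and Zpbp2 at 24 h are the widest. The interval of Acr at 46 days is narrower than its p would give.

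Acr encodes acrosin, the serine protease stored in the acrosome as an inactive precursor. At 24 h its CPM was 14.7, 4.45, 10.4 and 7.79 in CTRL 2, 4, 6 and 8. In TESA 1, 3, 5 and 7 its CPM was 0.370, 5.67, 11.0 and 8.24. TESA 1 stood apart from the other 7 libraries, while the other 3 TESA libraries lay within the CTRL range. The low value in TESA 1 rested on 5.63 estimated counts, with an exact Poisson 95% interval of 2.20 to 13.1 counts, where the library held 19757518 in all; the next lowest count was 55.2 in CTRL 4. Such intervals cover counting error only. The log2 fold change of Acr was -0.56 (standard error 0.74), and its 95% interval ran from 0.215-fold to 2.14-fold. Without TESA 1 the log2 fold change was -0.15. Acr spans chr15:89568326-89578853 in GRCm38.

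Acrbp encodes the protein that binds the acrosin precursor and holds it in the acrosomal matrix. At 24 h its CPM was 24.2, 15.4, 18.5 and 19.5 in CTRL 2, 4, 6 and 8. In TESA 1, 3, 5 and 7 its CPM was 31.1, 18.7, 19.1 and 17.7. With TMM, TESA 1 was the highest of the 8 libraries for Acrbp and the lowest for Acr, and the remaining TESA libraries sat close to each other inside the CTRL range. On library totals, TESA 7 was highest for Acrbp, at 27.9 CPM, and TESA 1 had 25.5 CPM, while TESA 1 remained lowest for Acr. The log2 fold change was 0.16 (standard error 0.26), with a 95% interval of 0.747-fold to 1.66-fold, and it became -0.05 without TESA 1. Acrbp lies at chr6:125049927-125063265.

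The ratio of Acr to Acrbp counts in a library does not depend on how libraries are scaled. At 24 h it was 0.606, 0.290, 0.563 and 0.399 in CTRL 2, 4, 6 and 8. It was 0.0112 in TESA 1 and 0.304, 0.575 and 0.464 in TESA 3, 5 and 7, so that 7 of 8 libraries lay between 0.290 and 0.606 and TESA 1 far below them. The ratio of Spaca6 to Acrbp was also lowest in TESA 1, at 0.490, against 0.682 to 1.23 elsewhere, but the ratios of Acrv1, Zpbp, Zpbp2, Izumo1 and Tmem95 to Acrbp were not. The cause of the low Acr count in TESA 1 was not tested.

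Acrv1 encodes a protein of the acrosomal matrix that is made in round spermatids. Its CPM at 24 h was 1.05 to 3.01 in CTRL and 0.692 to 4.38 in TESA, with the highest value in TESA 7 and the lowest in TESA 3. The log2 fold change was -0.05 (standard error 0.68), and its sign changed when single libraries were left out. Spam1, which encodes the hyaluronidase that opens the cumulus around the egg, was listed at neither time.

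Zpbp and Zpbp2 are paralogs whose proteins sit in the acrosome and bind the zona pellucida, the coat of the egg. Zpbp had 6.27, 1.86, 2.91 and 3.45 CPM in CTRL 2, 4, 6 and 8 and 4.01, 2.25, 5.67 and 2.39 CPM in TESA 1, 3, 5 and 7. The ranges were nearly the same, with a mean of 3.62 ± 1.88 CPM (SD, n = 4) in CTRL and 3.58 ± 1.61 (SD, n = 4) in TESA. Its log2 fold change was -0.02 (standard error 0.53). Zpbp2 had 0.668, 0.647, 2.38 and 4.11 CPM in CTRL 2, 4, 6 and 8 and 1.54, 1.38, 3.35 and 0.711 CPM in TESA 1, 3, 5 and 7. It varied over 6-fold within CTRL on 7.68 to 124 counts, and the 95% interval of its difference, 0.254-fold to 3.10-fold, was the widest of the genes tested. Zpbp2 had a difference of -0.17 on the log2 scale (standard error 0.81), which was -1.46 with limma voom and quality weights and 0.49 without CTRL 8. How far the counting divided reads between the paralogs was not tested. The span of Zpbp also overlaps the protein-coding gene Spata48, pseudogenes and a snoRNA gene, and how reads were divided there was not tested. Spaca1, needed for the acrosome to take its shape, was listed at neither time.

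Izumo1 encodes the sperm protein that binds JUNO on the egg membrane. Its CPM at 24 h was 3.43, 2.10, 2.57 and 3.08 in CTRL 2, 4, 6 and 8. In TESA 1, 3, 5 and 7 its CPM was 3.02, 1.64, 1.72 and 2.87, with 2 TESA libraries below every CTRL library and 2 among them. The log2 fold change was -0.27 (standard error 0.49), with a 95% interval of 0.388-fold to 1.77-fold. It was -0.03 on library totals. On that scale only TESA 3, at 1.55 CPM, lay below the lowest CTRL library, CTRL 4 at 1.70 CPM. TESA 7 was then the highest library, at 4.51 CPM.

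Spaca6 encodes a membrane protein with which sperm fuse with the egg. At 24 h its CPM was 26.1, 19.0, 17.6 and 20.7 in CTRL 2, 4, 6 and 8. In TESA 1, 3, 5 and 7 its CPM was 15.2, 20.2, 16.1 and 12.1. It had the smallest unadjusted p of the 7 genes (0.139): 3 of 4 TESA libraries lay below the lowest CTRL library and TESA 3 lay among them. On library totals only TESA 1, at 12.5 CPM, lay below the lowest CTRL library, CTRL 4 at 15.3 CPM. The log2 fold change was -0.39 (standard error 0.24, adjusted p = 1.00 in edgeR's quasi-likelihood test), with a 95% interval of 0.526-fold to 1.11-fold. Spaca6 spans chr17:17826085-17843010, an interval that holds the miRNA genes Mir99b, Mirlet7e and Mir125a and overlaps Has1. Has1 had 0 to 36 counts in the 8 libraries. How reads in the shared interval were divided was not tested.

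Tmem95 encodes a further membrane protein needed for fusion. It had 0.919, 0.728, 0 and 0.796 CPM in CTRL 2, 4, 6 and 8 and 0.0617, 0, 1.28 and 1.42 CPM in TESA 1, 3, 5 and 7. Only 3 libraries held more than 20 counts of it, so it was left out of the test. The 0 counts allow up to 0.146 CPM in CTRL 6 and 0.130 CPM in TESA 3, where 3 counts are the bound taken for a count of 0. Each condition had 1 library without a count, and the conditions overlapped.

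**Figure D2:**
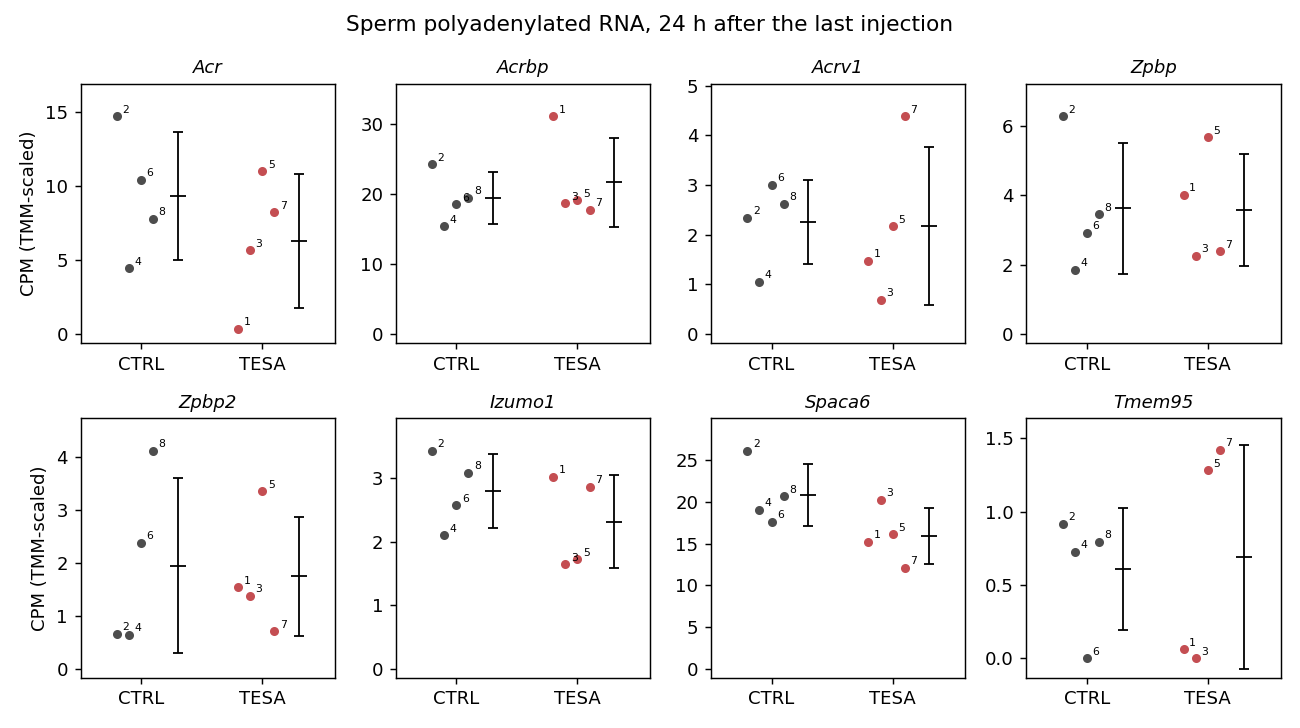
CPM scaled by TMM of the 8 genes listed at 24 h in each library (points, with the library's number), with the mean and SD of the 4 CTRL and the 4 TESA libraries beside them. On this scale TESA 1 is lowest for Acr (0.370 CPM) and highest for Acrbp (31.1 CPM), and the 2 conditions overlap in each panel.

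At 46 days Acr, Acrbp and Spaca6 were measured in total RNA. Acr had a lowest, median and highest CPM of 4.01, 5.40 and 7.16 in CTRL and 2.33, 4.74 and 8.82 in TESA. The log2 fold change was -0.08 (standard error 0.25), with a 95% interval of 0.653-fold to 1.38-fold. For Acr this standard error and interval are narrower than its p would give, since edgeR raised that p to a bound. Acrbp had 5.6, 8.97 and 12.4 CPM in CTRL and 1.19, 8.59 and 12.9 CPM in TESA, with the lowest value in TESA 12 on 3.17 counts. Its log2 fold change was -0.07 (standard error 0.32), with a 95% interval of 0.591-fold to 1.53-fold. Spaca6 had 8.31, 10.2 and 13.0 CPM in CTRL and 4.74, 9.31 and 17.8 CPM in TESA. Its log2 fold change was 0.09 (standard error 0.23), with a 95% interval of 0.763-fold to 1.48-fold.

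With TMM, the CTRL range of each of the 3 genes lay inside the TESA range. On this scale the SD over 7 libraries was 1.05 CPM in CTRL and 2.29 in TESA for Acr, 2.24 and 3.77 for Acrbp, and 1.5 and 4.24 for Spaca6. On library totals the order turned, with an SD of 18.8 in CTRL and 10.9 in TESA for Acr, 26.1 and 14.1 for Acrbp, and 30.5 and 15.2 for Spaca6, and CTRL 14 was highest for each gene. Some TESA extremes rested on few counts of the gene, 2 for Acr in TESA 2 and 3.17 for Acrbp in TESA 12, although these libraries held 8758584 and 7999349 counts in all and their TMM factors were 0.0981 and 0.316. In contrast, no CTRL library had under 26 counts of any of the 3 genes. The difference in spread was not tested. Libraries 11 to 14 (2 of each condition) had a Lars2 to RP23-81C12.3 count ratio of 0.763 to 1.03, against 0.124 to 0.218 in libraries 1 to 10. The labels give no reason for this ratio, and its part in the values was not tested. Within libraries 1 to 10 the log2 fold changes were -0.03 for Acr, 0.10 for Acrbp and 0.40 for Spaca6, and within libraries 11 to 14 they were -0.19, -0.67 and -0.83; 0 of 3 genes passed the adjusted threshold in either.

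**Figure D3:**
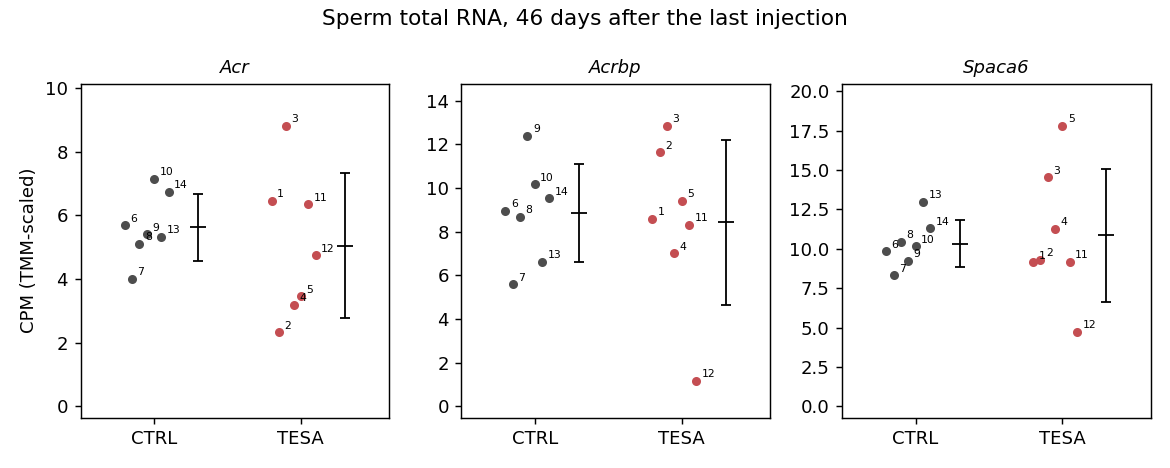
CPM scaled by TMM of Acr, Acrbp and Spaca6 at 46 days in each library (points, with the library's number), with the mean and SD of the 7 CTRL and the 7 TESA libraries beside them. In each panel the CTRL libraries lie within the range of the TESA libraries, and TESA 12 is lowest for Acrbp (1.19 CPM) and Spaca6 (4.74 CPM).

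The effect at 46 days minus that at 24 h was tested in 1 edgeR model over both tables, in which 0% of 2141 genes passed an adjusted p of 0.05. The difference was 0.48 on the log2 scale for Acr (95% interval -0.95 to 1.91, adjusted p = 0.871 in edgeR's quasi-likelihood test), -0.23 for Acrbp (-1.19 to 0.73, adjusted p = 0.903) and 0.48 for Spaca6 (-0.24 to 1.20, adjusted p = 0.653). Time and library type are the same split here and cannot be told apart.

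Genes with related roles were taken from lists. Of 36 other acrosome genes, 31 were listed at 24 h and tested: 17 were lower and 14 higher in TESA, with a median log2 fold change of -0.07, and 1 of the 31 had an unadjusted p under 0.05, against 2.4% of all genes tested. That gene was Dpy19l2, which anchors the acrosome to the nucleus. It had 3.09, 1.21, 2.57 and 2.49 CPM in CTRL 2, 4, 6 and 8 and 0.863, 0.260, 0 and 0.619 CPM in TESA 1, 3, 5 and 7. With TMM, 1 of the 31 genes, Dpy19l2, had no overlap between the conditions, against 3.05% of all genes tested. The conditions did not overlap, on library totals only by 0.974 CPM in TESA 7 against 0.978 CPM in CTRL 4, and on 0 to 75 counts the log2 fold change of -2.41 (standard error 1.07) did not pass (adjusted p = 1.00 in edgeR's quasi-likelihood test). Tmf1, needed for the acrosome to form, had -0.43 (standard error 0.35), and Lyzl6, a lysozyme-like protein, had -2.00 (standard error 1.68). Ccdc136, with the most counts of this list, had 379 ± 134 CPM (SD, n = 4) in CTRL and 422 ± 102 in TESA. At 46 days Pick1, Actl7a, Ccdc136 and Pcsk4 were listed, and 0 of the 4 had an unadjusted p under 0.05, with a median of -0.14.

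Of 11 other fusion genes, 7 were listed at 24 h and 5 were tested. Of these 5, 2 were lower and 3 higher in TESA, and their log2 fold changes ran from -1.51 to 1.28. The median was 0.55 and 0 had an unadjusted p under 0.05. In 1 of the 5 the conditions did not overlap, against 3.05% of all genes tested. Dcst2, needed for fusion, had 4.24 to 6.53 CPM in TESA and 0 to 3.83 CPM in CTRL, without overlap, at a log2 fold change of 1.28 (standard error 0.88). Cd9, a tetraspanin, had 0.68 (standard error 0.39), and Izumo4, with the most counts of this list, had 0.55 (standard error 0.34).

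Of 21 genes for zona binding and for the maturation of ADAM proteins, 18 were tested at 24 h, 0 had an unadjusted p under 0.05 and the median was -0.04. Pgap1, an enzyme that remodels lipid anchors of membrane proteins, had -0.79 on the log2 scale (standard error 0.37), and Calr3, a testis chaperone for ADAM3, had -0.76 (standard error 0.39). Calr, a general chaperone of the endoplasmic reticulum with the most counts of this list, had 89.3 to 98.8 CPM in TESA and 68.5 to 88.1 CPM in CTRL, at a log2 fold change of 0.27 (standard error 0.18). The conditions did not overlap with TMM but did on library totals, where TESA 1 had 73.3 CPM and CTRL 8 had 89.9 CPM. With TMM, 1 of the 18 genes had no overlap, against 3.05% of all genes tested. At 46 days Ace, Calr3 and Prss37 were listed, with a median of -0.02.

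Of 14 genes of acrosomal exocytosis, 8 were tested at 24 h, with a median of 0.25. Cplx2, a complexin that acts on the SNARE complex, had 6.35, 4.37, 3.10 and 3.71 CPM in CTRL 2, 4, 6 and 8 and 14.1, 5.19, 9.81 and 7.18 CPM in TESA 1, 3, 5 and 7. It had an unadjusted p of 0.0276 at 1.05 on the log2 scale (standard error 0.41), and did not pass after adjustment (adjusted p = 1.00 in edgeR's quasi-likelihood test). Napa, an adaptor in the disassembly of SNARE complexes with the most counts of this list, had 47.5 to 70.6 CPM in TESA and 39.4 to 53.1 CPM in CTRL, at 0.35 on the log2 scale (standard error 0.21). Rab3a, a small GTPase of exocytosis, had 1.94 (standard error 1.24), on 0 counts in CTRL 2 and CTRL 4. Plcz1, the sperm phospholipase that activates the egg, had 9.27, 0.728, 10.3 and 15.2 CPM in CTRL 2, 4, 6 and 8 and 0, 6.96, 0 and 3.53 CPM in TESA 1, 3, 5 and 7. TESA 3 and TESA 7 lay inside the CTRL range, and its log2 fold change was -1.75 (standard error 1.40).

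The acrosome forms in the cells that also make the tail and the protamines. The 13 late spermatid transcripts, such as Odf1 and Prm2, summed to 3305 CPM in CTRL 4 and 11273 CPM in CTRL 8, with TESA libraries from 4952 to 10201 CPM, and their median log2 fold change was -0.11 at 24 h and 0.10 at 46 days. Between pairs of the 7 acrosome and fusion genes, the Pearson correlation of log2 CPM over the 8 libraries ranged from -0.56 (Acr with Acrbp) to 0.61 (Acrbp with Zpbp), as a description over libraries that also differ in depth. The lowest value rested on TESA 1: over the other 7 libraries Acr with Acrbp had 0.82, and the pairs ranged from -0.46 (Acrv1 with Spaca6) to 0.87 (Acr with Zpbp). The 5 genes most like the mean profile of the 7 genes were Dnaja4 (r = 0.97), RP24-160H16.7 (0.97), Mllt11 (0.96), RP23-45A13.2 (0.95) and Wbp2nl (0.94), picked from 13032 genes over 8 libraries. Each of the 7 genes is itself part of this mean, which raises its correlation with it. That correlation was 0.71 for Acr, 0.68 for Zpbp, 0.66 for Acrv1, 0.48 for Zpbp2, 0.36 for Izumo1, 0.31 for Spaca6 and 0.05 for Acrbp. Without TESA 1 it was 0.89 for Acr, 0.84 for Zpbp, 0.64 for Acrv1, 0.52 for Zpbp2, 0.55 for Izumo1, 0.21 for Spaca6 and 0.76 for Acrbp. Wbp2nl encodes a protein of the sperm head.

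Transcripts taken as markers of other cells were listed at 24 h. Of 11 leukocyte markers 10 were listed, and their summed level was 1214 to 2070 CPM in CTRL and 1300 to 2576 CPM in TESA, most of the counts being of Cd52, which the epididymis also makes. Of these 10, 6 were lower and 4 higher in TESA. Ptprc, a defining leukocyte marker, averaged 8.80 CPM in CTRL and 5.37 in TESA, and S100a9, a neutrophil marker, 14.3 CPM in CTRL and 23.0 in TESA (log2 fold change -0.71, standard error 0.75, and 0.69, standard error 0.45). The TESA mean of S100a9 rested on TESA 3 (45.8 CPM), as the other TESA libraries had 23.7, 12.6 and 9.80 CPM, against 11.1 to 17.1 CPM in CTRL. Of 9 epididymal markers 5 were listed, with the most counts for Crisp1, and summed to 387, 508, 922 and 1867 CPM in CTRL 2, 4, 6 and 8 and to 731, 564, 349 and 661 CPM in TESA 1, 3, 5 and 7. Of 5 blood markers 4 were listed (53.5 to 270 CPM in CTRL, 64.7 to 147 in TESA, with the most counts for Hba-a2), and all 5 smooth muscle markers were (11.9 to 35.6 CPM in CTRL, 26.8 to 77.3 in TESA, with the most counts for Tagln). The highest smooth muscle sum came from TESA 5, and the other 3 TESA libraries, at 26.8 to 32.3 CPM, lay inside the CTRL range. Of the genes tested, 4 of 4 blood genes were lower and 5 of 5 smooth muscle genes higher in TESA, as were 3 of 5 epididymal, 3 of 5 earlier germ cell and 2 of 2 Sertoli and Leydig cell genes. Of 10 Sertoli and Leydig cell markers 2 were listed, of which Clu, also made in the epididymis, gave nearly all the level. Of 10 genes of earlier germ cells 6 were listed, with 12.0 to 16.3 CPM in CTRL and 7.22 to 16.7 in TESA, with the most counts for Zbtb16. TESA 1, with the low Acr value, was neither the highest nor the lowest library for the leukocyte, epididymal, blood and smooth muscle markers, and was the lowest for the earlier germ cell genes (7.22 CPM). For the Sertoli and Leydig cell markers TESA 1 was also the lowest with TMM, at 379 CPM, close to TESA 3 at 383 CPM. On library totals Clu was lower in CTRL 2 (303 CPM) than in TESA 1 (308 CPM). The median log2 fold change was -0.11 for the leukocyte, 0.04 for the epididymal, -0.35 for the blood, 0.77 for the smooth muscle, 0.42 for the Sertoli and Leydig cell and 0.02 for the earlier germ cell genes, and 0 of them passed an adjusted p of 0.05. At 46 days these 6 lists had no entry. The part of other cells in the values was not tested.

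The promoters of 9 of the 10 genes (RefSeq, GRCm38.p6; 300 bases around the start of the gene) were searched on both strands for the cAMP response element, since the spermatid activator CREM binds it. The full element TGACGTCA was found in 1 of the 9 genes and in 1.79% of 32851 promoters. The shorter TGACGT, which the full element contains on both strands, was found in 3 of the 9 and in 7.51% of promoters, and TATAAA in 0 of the 9 and in 13.6%. A match is a description of the letters and not of a bound site. The stretches before the start of the gene that hold a match are shown with the match in capitals. They belong to 3 of the 9 genes searched, Acrbp of the matrix and Izumo1 and Tmem95 of fusion. The other genes searched had no match. The stretches lie at chr6:125049827-125049926 (plus strand), chr7:45621665-45621764 (plus strand) and chr11:69878206-69878305 (minus strand).
Acrbp: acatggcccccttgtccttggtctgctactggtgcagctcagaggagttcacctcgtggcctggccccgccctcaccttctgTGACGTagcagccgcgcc
Izumo1: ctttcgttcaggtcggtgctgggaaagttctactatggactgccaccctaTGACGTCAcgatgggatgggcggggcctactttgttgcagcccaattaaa
Tmem95: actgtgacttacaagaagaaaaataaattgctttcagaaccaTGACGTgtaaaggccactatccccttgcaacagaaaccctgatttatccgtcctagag
The match began 18 bases before the start of Acrbp, 96 before that of Izumo1 and 208 before that of Tmem95. These distances count from the start used for the promoter, which for Tmem95 lies inside the annotated span of the gene (chr11:69876054-69878171).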

How the data were processed

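Sperm RNA was sequenced at 24 h and 46 days; serum libraries were not used. The authors trimmed reads (Trim Galore 1.16) and quantified them with Salmon 0.11.2 on GENCODE transcripts, piRNA precursors and repeat families (GRCm38), with a strand-specific setting; the deposited values are estimated counts per gene or repeat family, not normalized. Each table holds only part of the annotated genes, by a filter that is not stated for it, so a gene that is not listed was not measured here. Estimated counts were rounded. TMM was computed over all features. Genes that exceeded 20 counts in 4 or more libraries of 24 h, or in 6 or more of 46 days, from 80% of the smaller group, were tested in R 4.3.3 with edgeR 4.0.16 (quasi-likelihood F-test), apart from repeats and other RNA classes, with Benjamini-Hochberg adjustment over all of them and a threshold of 0.05. Names absent from the RefSeq annotation were classed with mRNAs and lincRNAs. Standard errors were taken from the F statistic. For Acr at 46 days edgeR raised p to its Poisson bound. The standard error and interval printed for it leave out this bound and are narrower than its p would give. Correlations used log2 of CPM plus 0.5. Positions are those of the RefSeq GRCm38.p6 annotation. Alternatives used DESeq2 1.42.0 and limma 3.58.1 (voom with quality weights). Python 3.11.15 with matplotlib 3.10.9 drew the plots, and the R package data.table (version 1.17.8) read the counts. No 2 libraries held identical values. The fits were tested on simulated data. The members and gene lists were chosen with earlier results of these data known. Named genes were each member, up to 3 genes with the smallest p and the gene with the most counts of each list, the 5 genes with the most similar profile and the genes with the most counts of each table; of the late spermatid and other-cell lists mainly the gene with the most counts is printed. Plcz1 and, at 46 days, Actl7a fall outside this rule and were chosen after their values were seen. Other settings changed the tool, scaling, filter or features, or left out 1 library; further ones chosen after seeing the data took libraries 1 to 10 or 11 to 14 of 46 days alone, added a term for libraries 11 to 14, left out TESA 2 and TESA 12, left TESA 1 out of the correlations at 24 h, or took library totals for the overlap of named list genes.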

Additional observations from a re-analysis of the deposited data

Results flagged for a closer look

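Within the 4 TESA libraries of 24 h and with TMM, Acrbp in TESA 1 lay far above the others, at 31.1 CPM against 17.7 to 19.1 CPM, with a gap to the next library of 0.896 of the whole range. On library totals TESA 1 had 25.5 CPM, against 17.6, 20.6 and 27.9 CPM in TESA 3, 5 and 7, and was not the highest. The cause was not tested. Such a value was looked for in both conditions, in the 8 genes listed at 24 h and the 3 at 46 days. It is flagged by chance in about 5% of such groups of samples.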

How the results depend on the processing

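In every alternative run, the adjusted p of each acrosome or fusion gene of the 10 that was tested stayed above 0.05. In all 16 alternatives at 24 h, the log2 fold changes of Acr, Izumo1 and Spaca6 kept their direction. So did that of Acr in all 26 at 46 days and the difference between times of Acrbp in 24. The sizes of these values moved, as given below. The difference between times ran from 0.09 to 0.88 for Acr, -0.38 to -0.005 for Acrbp and 0.32 to 0.61 for Spaca6 with 1 library left out. Over all settings, the lowest difference of Acrbp was -1.48, against -0.23 in the main fit. With 1 library left out at a time, the log2 fold change at 24 h ran from -0.94 to -0.15 for Acr, -0.0510 to 0.297 for Acrbp, -0.64 to 0.25 for Acrv1, -0.31 to 0.40 for Zpbp, -0.68 to 0.49 for Zpbp2, -0.41 to -0.14 for Izumo1 and -0.53 to -0.25 for Spaca6; at 46 days from -0.29 to -0.01 for Acr, -0.237 to 0.0604 for Acrbp and -0.12 to 0.17 for Spaca6. With limma voom with quality weights, Zpbp2 at 24 h was -1.46, against -0.17. On library totals at 24 h, Acr was -0.20, Acrbp 0.32, Acrv1 0.32, Izumo1 -0.03, Spaca6 -0.20, Zpbp 0.19 and Zpbp2 -0.19. At 46 days on library totals, Spaca6 and the median of the 3 genes were -1.14, where the median of all genes was -1.03. The difference between times was -0.88 for Acr and -0.95 for Spaca6 on library totals. Over all settings, the lowest value of Acr at 46 days was -1.08, against -0.08 in the main fit. Acrbp at 46 days was 0.0189 with limma voom and quality weights, 0.10 in libraries 1 to 10 and 0.0221 without TESA 2 and TESA 12. Its lowest value over all settings was -1.16, against -0.07 in the main fit. In libraries 11 to 14, Spaca6 was -0.83 and the median of the 3 genes -0.67. edgeR's exact test called 12 genes at 46 days, where the quasi-likelihood test called 0. The cause was not tested. An unadjusted p under 0.05 was reached by 313 genes at 24 h (142 on library totals, 919 with limma voom and quality weights, 476 without TESA 3) and by 130 at 46 days (37 on library totals, 70 without TESA 12, 66 in libraries 1 to 10, 73 in libraries 11 to 14, 76 with a term for libraries 11 to 14, 77 without TESA 2 and TESA 12). The lists of other acrosome, fusion, zona-binding and exocytosis genes held 31, 5, 18 and 8 genes tested at 24 h. Over these lists 2 genes reached an unadjusted p under 0.05, against 313 of all 13032 genes (2.4%). With limma voom and quality weights 9 did, against 919 of all 13032. The count over the lists was 1 on library totals and 0 to 4 with 1 library left out.

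No paired analysis was possible because TESA and CTRL libraries of a table share no number in the labels. A scale per transcript length was not run, since no transcript lengths were at hand. Few counts of a gene limit some values at 46 days: of 7 TESA libraries, 3 held more than 20 Acr counts, and 5 more than 20 Acrbp or Spaca6 counts, against 7 of 7 CTRL libraries.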

Other observations

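At 24 h the genes with the largest share of counts, not corrected for transcript length, were RP23-81C12.3 (32.9%), Lars2 (10.7%) and RP24-310M4.2 (1.88%), and at 46 days Yam1 (17.3%), Gm26870 (1.29%) and RP23-81C12.3 (0.159%). The ratio of Acr to Acrbp counts at 46 days was 0.432 to 0.801 in the 7 CTRL libraries. In TESA it was 0.2 in TESA 2 and 3.81 in TESA 12, both on few counts, and 0.363 to 0.763 in the other 5.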
